A study of Homo sapiens with 8 samples.

Results

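The m6A reader genes are 10 genes whose proteins bind RNA that carries N6-methyladenosine (m6A): YTHDF1, YTHDF2, YTHDF3, YTHDC1, YTHDC2, IGF2BP1, IGF2BP2, IGF2BP3, FMR1 and HNRNPA2B1. The list is by gene name, drawn up with earlier results of these data known, and every row of the authors' deposited table under these names was taken. In HUH7, 9 of the 10 were listed among 10447 genes, with 1 value each. In PLC/PRF/5, 7 of the 10 were listed, with 16 of the 9516 peaks. Between them the columns held a value for all 10 genes, and 6 genes had values in both lines.

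HUH7 and PLC/PRF/5 are established human hepatocellular carcinoma lines. In each line, CSTF2, a gene for a subunit of the cleavage stimulation factor that helps to form mRNA 3′ ends, was knocked out with CRISPR-Cas9, and the unedited parental line was the control; the labels name no further treatment and do not say whether a knockout was 1 clone or a pool. From each genotype, 1 library was made of RNA pulled down with an m6A antibody (IP) and 1 of the input RNA, which gives 8 libraries in 8 groups of 1 (HUH7 and PLC/PRF/5, parental and knockout, IP and input). No value has a replicate, so no test was possible and each difference below is a description of 1 deposited comparison per line.

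An m6A reader recognises the methylated base and passes the transcript on to other machinery. YTHDF1, YTHDF2 and YTHDF3 are closely related cytoplasmic proteins with a YTH domain, and YTHDF2 is best known for bringing the CCR4-NOT deadenylase to methylated mRNA, which is then degraded. YTHDC1 is the nuclear YTH protein, with roles in splicing and export, while YTHDC2 is an RNA helicase known for its role in meiosis. The IGF2BP proteins are oncofetal RNA-binding proteins, often re-expressed in liver cancer, that stabilise methylated mRNAs. FMR1 encodes FMRP, a regulator of translation, and HNRNPA2B1 encodes a nuclear protein of RNA processing. The values concern the readers' own transcripts in a comparison of m6A libraries, in which more methylation and more transcript cannot be told apart. They measure neither the amount of reader protein nor its binding to other RNAs.

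Each deposited value is a log2 fold change between parental and knockout cells, headed as a difference. The table's title names control before knockout, but neither it nor the headers say which genotype is the numerator, so "positive" and "negative" are used as deposited, with no direction toward either genotype. The deposited table gives no separate IP and input values, and whether its values were adjusted for input is not given in the sources used here. More methylation and more transcript therefore cannot be told apart, and sequencing depth is unknown. In the authors' deposited table, CSTF2 itself was listed only in PLC/PRF/5, with 1 peak at -0.50, which is no check of the knockout. Of 8 hepatocyte genes, such as those for albumin and apolipoproteins, 5 were listed in HUH7 and 6 in PLC/PRF/5; being listed shows that a difference was deposited and gives no level.

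In HUH7, the reader genes fell into 5 genes with small values and 4 with large ones. IGF2BP2, YTHDF2, HNRNPA2B1, YTHDC1 and YTHDF3 lay between -0.59 and 0.54 in the authors' deposited table. YTHDF1 (10.50) and FMR1 (4.13) were far above them and YTHDC2 (-1.92) and IGF2BP3 (-1.36) below them. By sign, 6 of the 9 were positive and 3 negative, beside 60.8% positive and 39.1% negative genes in the whole column. Absolute values reached 1 in 4 of the 9, beside 36.9% of all genes. Their split was 2 positive and 2 negative, against 22.2% of all genes at 1 or more and 14.6% at -1 or less. With 9 genes, these shares are near those of the column. The median of the readers was 0.22 and that of all genes 0.20.

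**Figure D1:**
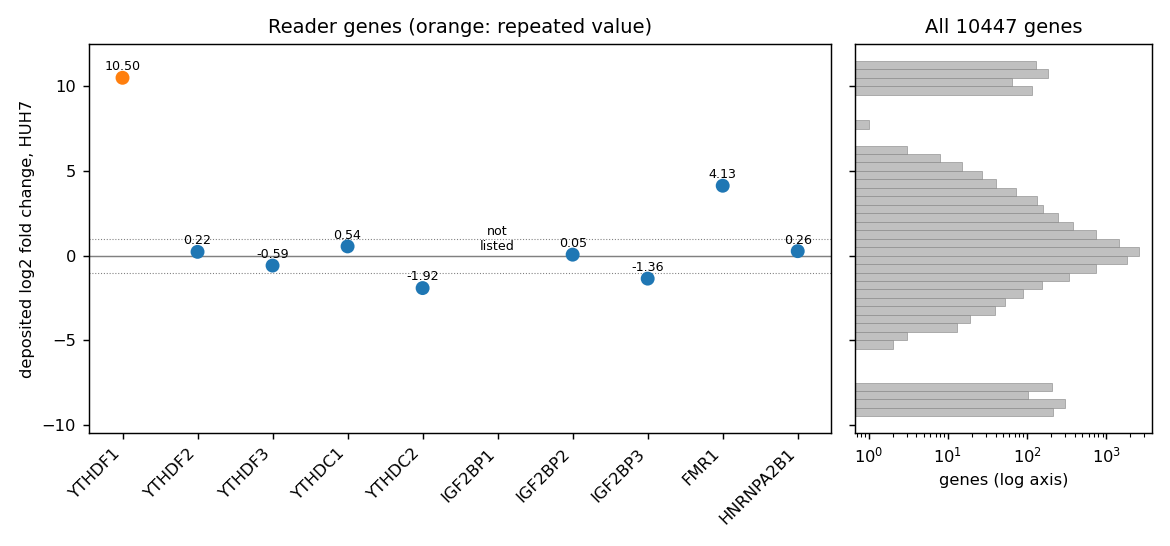
Deposited log2 fold changes of the reader genes in HUH7, 1 point per gene (left, dotted lines at 1 and -1), beside a histogram of all 10447 genes on the same vertical axis, with the number of genes on a log axis (right). YTHDF1, at 10.50, lies in a separate upper group of repeated values, while 5 readers lie between -0.59 and 0.54.

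The cytoplasmic YTHDF genes lay far apart in HUH7 through YTHDF1 alone, whose value is a repeated one, as described below; YTHDF2 and YTHDF3 lay at 0.22 and -0.59. YTHDF1 (chromosome 20, 63195429 to 63216131, GRCh38) had 10.50, which placed it above 97.0% of all genes in the authors' deposited table. YTHDF2 (chromosome 1, 28736624 to 28769775) was close to the middle of the column, at percentile 51.2. YTHDF3 (chromosome 8, 63168553 to 63212788) was at percentile 20.0. The 3 paralogues therefore lay at the top, in the middle and in the lower part of the same column. How any reads matching several genes were assigned is not given in the sources used here, and similarity between these transcripts was not computed.

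Other genes held the YTHDF1 value too. In all, 67 genes held it to 6 decimals, and it was 1 of 16 values that 10 or more genes shared at a size above 1, called repeated here. Of all HUH7 genes, 12.6% held a repeated value, and YTHDF1 was the only one of the 9 readers among them. The 8 positive repeated values, from 9.50 to 11.24, were held by 53 to 68 genes each. Turned back into ratios, they stood to each other as the whole numbers from 3 to 10, to within 3.1e-06, and YTHDF1 stood at 6. The 8 positive values together were held by 491 genes, and the unrepeated values of the other readers are not of this series. Without it, the median over the 8 other readers was 0.14, against 0.23 over all unrepeated genes.

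FMR1 (chromosome X, 147911919 to 147951125) had the largest unrepeated value of the readers in HUH7. Its 4.13 in the authors' deposited table corresponds to a 17.5-fold difference and lay at percentile 94.5 of all genes. The next unrepeated positive value, 0.54 for YTHDC1 (chromosome 4, 68310387 to 68350090), corresponds to a 1.46-fold difference. Of the 6 readers listed in both lines, FMR1 was the only one with a HUH7 value of 1 or more in size.

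YTHDC1 and YTHDC2, which share a YTH domain but little else of their structure, had opposite signs in HUH7. YTHDC2, and likewise IGF2BP3, lies in the last rows of the column, where 90.2% of genes were negative, as described below. YTHDC2 (chromosome 5, 113513694 to 113595284) had -1.92, a 3.78-fold difference, at percentile 10.2 in the authors' deposited table. Among the IGF2BP genes, IGF2BP2 (chromosome 3, 185643130 to 185825042) had 0.05, the value nearest to 0 of all readers. IGF2BP3 (chromosome 7, 23310209 to 23470491) had -1.36, a 2.57-fold difference, at percentile 12.2. IGF2BP1 (chromosome 17, 48996558 to 49056145) was not listed in HUH7. HNRNPA2B1 (chromosome 7, 26189927 to 26200746) had 0.26, at percentile 53.3.

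The 2 readers at -1 or less, YTHDC2 and IGF2BP3, stood apart in a second way. The HUH7 column is ordered by chromosome, from 1 to X, and then starts again at chromosome 1 for its last 479 rows, 4.59% of all genes. YTHDC2 and IGF2BP3 lie in these last rows and the other 7 readers in the first 9968. Of the last 479 genes, 90.2% were negative and their median was -2.27, against 36.7% negative and a median of 0.24 in the first run. Within the last rows, YTHDC2 was at percentile 53.4 and IGF2BP3 at percentile 61.8, so both were near the middle there. In the first run alone, 6 of 7 readers were positive and 1, YTHDF3, was negative. What divides the runs is not stated, and its part in the negative values of YTHDC2 and IGF2BP3 was not tested.

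**Figure D2:**
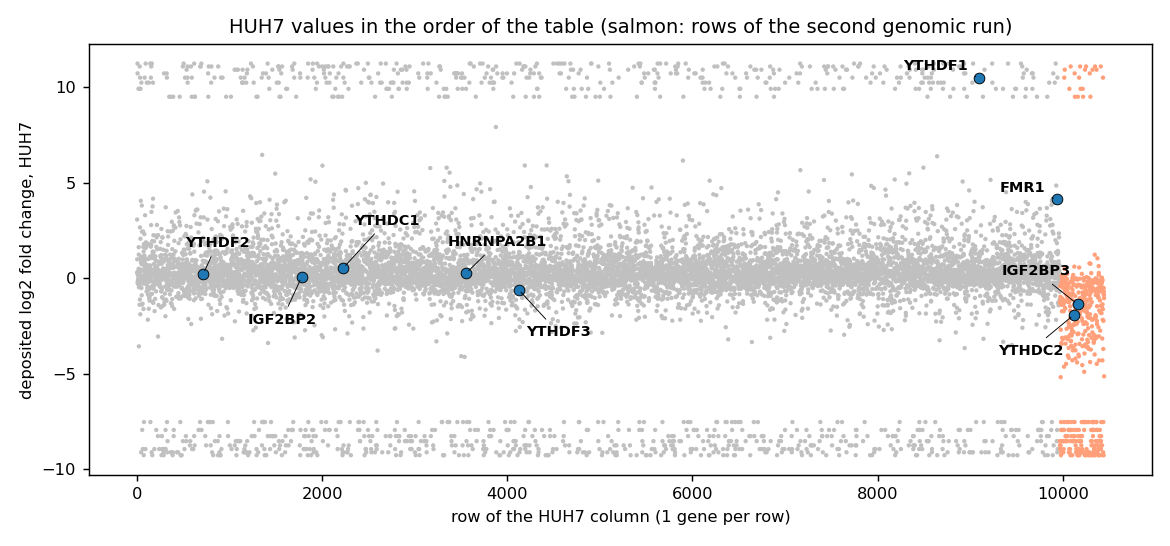
HUH7 log2 fold changes of all 10447 genes in the order of the deposited table (grey, first genomic run; salmon, the last 479 rows), with the 9 reader genes marked. YTHDC2 (-1.92) and IGF2BP3 (-1.36) sit in the last rows, where 90.2% of genes are negative. The repeated values form bands from -7.53 to -9.27 and, with YTHDF1 among them, from 9.50 to 11.24.

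In PLC/PRF/5, every listed reader had a positive median, and most of those with several peaks also had a negative one. The 7 medians ran from 0.06 for YTHDC1 to 6.99 for FMR1, with a median over genes of 4.75 against 5.45 over all 5477 genes. All 7 positive medians stand beside 90.3% positive medians over all genes, and 6 of 7 at an absolute value of 1 or more beside 89.0%. By peaks, 11 of 16 were positive and 5 negative, against 86.0% and 14.0% of all peaks, and 12 of 16 were 1 or more in size, against 87.1%. Of the 5 readers with more than 1 peak, 4 had peaks of both signs, while 33.2% of all such genes did. That share is over 2166 genes, of which 1274 have 2 peaks, whereas YTHDC1 and IGF2BP2 have 4, so it is not matched for peak number. The readers are few genes, peaks of 1 gene share their transcript, and no test was made.

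In the authors' deposited table, YTHDF2 had PLC/PRF/5 peaks far apart, at -1.93 and 7.83. The lower was near the bottom of the column, at percentile 1.18, and the gap of 9.76 was reached or passed by 13.5% of the 1274 genes with 2 peaks. YTHDF3 had 1 peak, at 1.49. YTHDF1 was not listed.

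YTHDC1 had 4 peaks, and 3 of them lay near or below 0. They were -1.04, -0.03, 0.15 and 8.89 in the authors' deposited table. Its median of 0.06 was the lowest of the readers, at percentile 9.99 of all gene medians. The spread of 9.93 between its lowest and highest peak was close to the 9.29 that was the median among the 204 genes with 4 peaks. YTHDC2 was not listed.

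IGF2BP2 also had 4 peaks, but 3 of them were large and positive. Its values were -0.92, 6.05, 7.50 and 10.87 in the authors' deposited table. With a median of 6.78 it stood at percentile 61.4 of all genes, so YTHDC1 and IGF2BP2, equal in peak number, differed in where most of their peaks lay. IGF2BP1 had 1 peak, at 4.75, and IGF2BP3 was not listed. IGF2BP2 and YTHDC1 were among the 7.74% of listed genes with 4 or more peaks. IGF2BP2 spans 182 kb and YTHDC1 39.7 kb, against a median of 81.3 kb among genes with 4 peaks and 31.9 kb among those with 1.

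FMR1 and HNRNPA2B1 were opposite extremes in how far their 2 peaks lay apart. The FMR1 peaks, 6.87 and 7.11 in the authors' deposited table, differed by 0.23, and 2.83% of genes with 2 peaks had so small a gap. The HNRNPA2B1 peaks, -0.45 and 12.91, differed by 13.36, and 1.81% of such genes had so large a gap. The median gap was 4.35. The upper HNRNPA2B1 peak was at percentile 99.5 of all peaks, just under the column's highest value of 13.00.

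**Figure D3:**
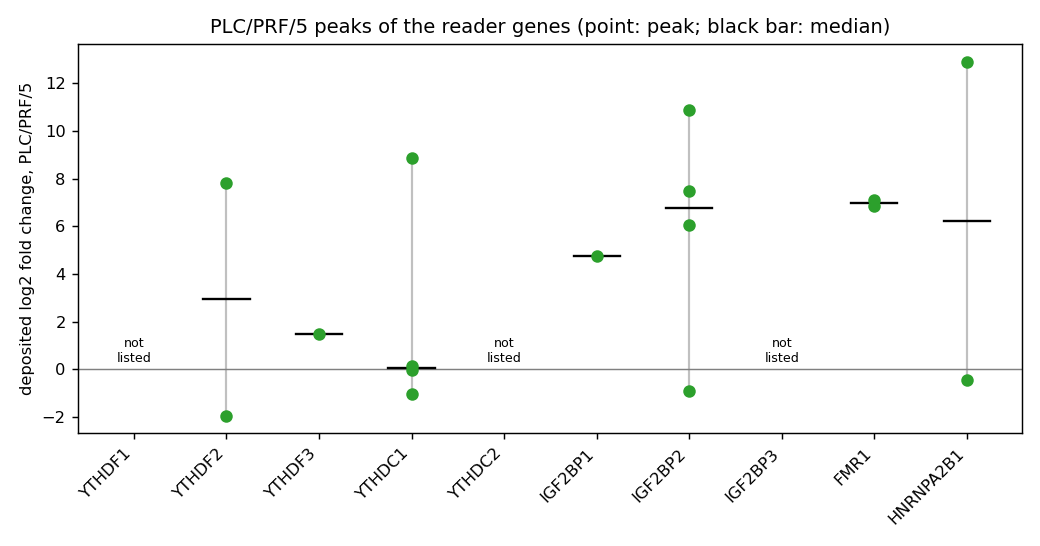
Deposited log2 fold changes of the 16 PLC/PRF/5 peaks of the reader genes, 1 point per peak, with the median of each gene as a black bar and a grey line from its lowest to its highest peak. YTHDF2, YTHDC1, IGF2BP2 and HNRNPA2B1 have peaks on both sides of 0, the FMR1 peaks lie together at 6.87 and 7.11, and YTHDF1, YTHDC2 and IGF2BP3 are not listed.

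The PLC/PRF/5 column limits what these peaks show. Its values fill the range from -2.12 to 13.00 almost evenly, with 599 to 655 peaks in each of 15 bins of 1 log2 unit from -2 to 13. In this column 5.83% of neighbouring rows were on the same chromosome, against 99.5% in HUH7, and peaks of the same reader were not in neighbouring rows. A positive median is what most genes of the column have, and a wide gap between peaks of 1 gene is common in it. Peak positions were not analysed here, so it is not known which part of a transcript each value belongs to.

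Side by side, 5 of the 6 readers listed in both lines had the same sign, taking the median in PLC/PRF/5: YTHDF2, YTHDC1, IGF2BP2, FMR1 and HNRNPA2B1, all positive. Over all 3866 genes listed in both lines, 56.9% had the same sign. The exception was YTHDF3, for which the authors' deposited table gave -0.59 in HUH7 and a peak at 1.49 in PLC/PRF/5. FMR1 had 4.13 in HUH7 and a median of 6.99 in PLC/PRF/5, at percentiles 94.5 and 63.4 of genes. HNRNPA2B1 had 0.26 and a median of 6.23, at percentiles 53.3 and 57.1. IGF2BP2 had 0.05 and a median of 6.78, at percentiles 42.3 and 61.4. YTHDF2 had 0.22 and a median of 2.95, at percentiles 51.2 and 28.8. YTHDC1 had 0.54 and a median of only 0.06, at percentiles 65.6 and 9.99. YTHDF2, YTHDC1, IGF2BP2 and HNRNPA2B1 also had 1 or more negative PLC/PRF/5 peaks, while the FMR1 peaks were all positive. The columns differ in scale, with a median of 0.20 over HUH7 genes and 5.45 over PLC/PRF/5 gene medians. Positive values were the majority in both columns. With each column centred on its own median, 3 of the 6 had the same sign.

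The 3 readers not listed in PLC/PRF/5, YTHDF1, YTHDC2 and IGF2BP3, had 3 of the 4 largest absolute values in HUH7. All 5 readers whose HUH7 value was under 1 in size were listed in PLC/PRF/5, and of the 4 at 1 or more, FMR1 was listed. In the whole column too, genes with larger HUH7 values were listed less often. With 5 and 4 readers and no test, nothing is read from how the readers differ from the column. Of the 6594 HUH7 genes under 1, 41.2% were also listed in PLC/PRF/5 (Clopper-Pearson 95% interval 40.0 to 42.4), against 29.8% of the 3853 genes at 1 or more (28.3 to 31.2). Of the 491 genes with a positive repeated value, as YTHDF1 had, 25.7% were listed (21.9 to 29.8). Of the 479 genes in the last rows, as YTHDC2 and IGF2BP3 were, 29.2% were listed (25.2 to 33.5). These intervals cover counting over the list of genes and contain no error between libraries.

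**Figure D4:**
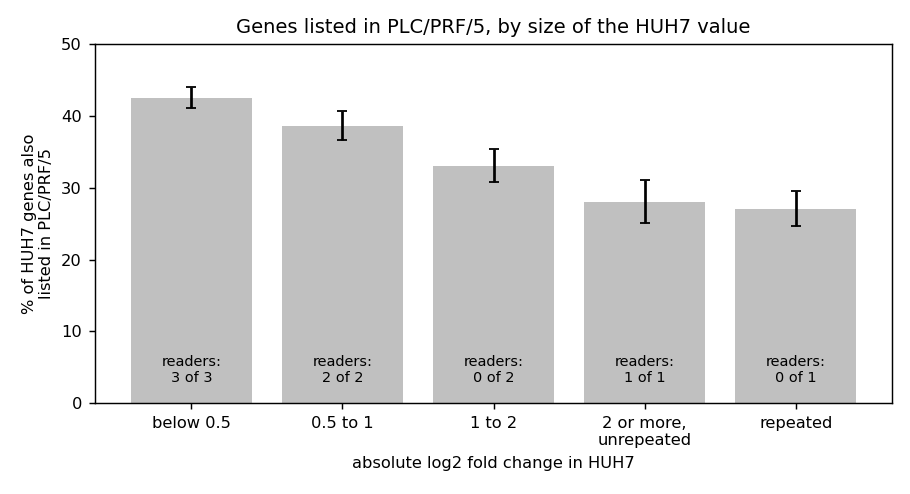
Share of HUH7 genes that are also listed in PLC/PRF/5, by the absolute size of their HUH7 log2 fold change, with Clopper-Pearson 95% intervals and, in each bar, how many of the readers in that class are listed. The share falls from 42.5% below 0.5 to 27.0% among repeated values.

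Most readers were listed in each line, as were most genes that place or remove the mark. Of 20056 RefSeq protein-coding genes, 50.3% were listed by symbol in HUH7 and 23.4% in PLC/PRF/5, beside 9 and 7 of the 10 readers. The RefSeq genes were not limited to those expressed in these lines, so nothing is read from the higher shares. All 11 genes that write or erase m6A were listed in HUH7 and 9 of them in PLC/PRF/5. Of 10 other proposed m6A binders, 7 and 6 were listed, and of 10 partners of the readers in decay, export and splicing, 6 and 7.

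Of the 11 genes that write or erase m6A, 8 were positive and 3 negative in HUH7, beside 60.8% and 39.1% of all genes. An absolute value of 1 was reached by 3 of them, beside 36.9% of all genes, and their median was 0.42. ZC3H13, a subunit of the methyltransferase complex, was the farthest from 0, with a repeated value of -8.27 in HUH7 in the authors' deposited table. Its 6 PLC/PRF/5 peaks ran from -0.08 to 11.81. It falls outside the rule for named genes and was chosen after its values were seen. RBM15 (2.08), which recruits the methyltransferase to RNA, and VIRMA (1.16), a scaffold of the methyltransferase complex, were the largest unrepeated values among those listed in both lines in the authors' deposited table. RBM15 had 8.99 and VIRMA -0.36 in PLC/PRF/5. RBM15B, a paralogue of RBM15, had a HUH7 value of 0.83 and a PLC/PRF/5 peak at -0.67.

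The other proposed binders lay between -0.32 and 0.77 in HUH7, and 0 of 7 reached 1 in size, beside 36.9% of all genes; with 7 genes and no test, nothing is read from this count. In the authors' deposited table, HNRNPC, a nuclear hnRNP protein, had a HUH7 value of 0.77 and a PLC/PRF/5 peak at -0.01. G3BP1, a stress granule protein, had 0.72 in HUH7 and a median of 5.02 over 4 peaks. RBMX, an hnRNP protein of splicing, had a HUH7 value of -0.32 and a PLC/PRF/5 peak at 11.95.

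Among partners of the readers, CNOT1 had the HUH7 value of largest size. CNOT1 is the scaffold of the CCR4-NOT complex that YTHDF2 recruits, and its -3.12 in the authors' deposited table also lay in the last 479 rows. In PLC/PRF/5 its peaks were at 2.19 and 7.26. POP1 and RIDA, a subunit of RNase P/MRP and the adaptor that links it to YTHDF2, had 0.28 and -0.28 in HUH7 and 5.88 and 4.07 in PLC/PRF/5.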

How the data were processed

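Libraries of m6A IP and input RNA from parental and CSTF2-knockout HUH7 and PLC/PRF/5 cells were made, per the labels' protocols, from poly(A) RNA that was fragmented and primed with random hexamers. The values are the authors' deposited log2 fold changes, per the file headers 1 column for each line beside gene names. The submitters' processing notes name FastQC 0.12.0 and build hg38; for the aligner, peak caller, differential test, scaling and filters, nothing is given in the sources used here.

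Rows were matched to the 10 members by name. Percentiles are the share of the column below a value. A PLC/PRF/5 gene took the median of its peaks. Gene spans are from RefSeq GRCh38.p14, with all 10 members matched. Scripts used Python 3.11.15, pandas 2.3.3 and SciPy 1.17.1, and the counting functions were tested on simulated data. No test between genotypes was made, with 1 library per group. Named genes were the 10 members, CSTF2 and, per further list, up to 3 genes in both columns with the largest unrepeated HUH7 values. The members and lists were chosen with earlier results of these data known. The division of the HUH7 rows was found on seeing the data.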

Additional observations from a re-analysis of the deposited data

Results flagged for a closer look

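YTHDF3 had opposite signs in the 2 lines, and the authors' deposited table gave it -0.59 in HUH7 and 1.49 for its only peak in PLC/PRF/5. The difference between the lines was not tested, since each line has 1 comparison, and it assumes that both columns use the same direction. The values lay near the same place in their columns, at percentile 20.0 of HUH7 genes and 23.4 of PLC/PRF/5 peaks, whose medians were 0.20 and 5.44.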

How the results depend on the processing

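Of 46 recomputed values, 30 kept their value or count to within the limits used, 15 moved and 1 changed sign. A count could change within those limits and still be called kept. For example, HUH7 readers past the threshold went from 4 to 6 of 9 at a threshold of 0.5. Negative HUH7 readers went from 3 to 4 with the column centred. In HUH7, the median over readers was 0.22 and became 0.14 without repeated values, 0.024 with the column centred, 1.31 as a mean and 0.26 without the last 479 rows, an alternative chosen after seeing the data. Without those rows, 1 reader was negative and 2 were past the threshold of 1, and at a threshold of 2 there were 2. In PLC/PRF/5, counting each peak gave 11 positive, 5 negative and 12 past the threshold, with a median of 5.40. Taking the peak of largest absolute value gave a median of 7.83. Centring that column gave 3 positive and 4 negative readers and turned the median to -0.68. With both columns centred, 3 of 6 readers had the same sign. Bringing names to current symbols added 0 rows for the members. No paired analysis was possible because each group has 1 library and the table holds no values per library, so no library could be left out and depth sets no interval here.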
